A study of Mus musculus with 6 samples.

Results

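Integrins are cell-surface receptors built from 1 alpha and 1 beta subunit, and focal adhesion proteins are the cytoplasmic partners that tie them to actin. The genes described here were every gene of the table named as a numbered or lettered integrin subunit (Itga or Itgb followed by a number, e, l, m, v or x), together with 17 named focal adhesion genes. This gave 41 genes of 18159 in the table, 24 integrin subunits and 17 focal adhesion genes, chosen by name; no measured value enters the rule, but the choice was made with earlier results of these data known. RNA of mouse intestinal epithelial cells, purified by capture on oligo(dT), was sequenced in 6 libraries. Of these, 3 came from wild-type mice and 3 from mice that the titles call Git2-knockout, all aged 12 days. The genotype field of the second group reads Git2 knockdown, enteroids, which are epithelial organoids, are named as the material in the design text, and no treatment, mouse strain or altered part of Git2 is given in the sources used here. The labels do not say whether libraries of 1 group had separate mice or cultures as their source, so the spread behind each p-value may be technical.

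In epithelium, integrins hold cells to the basement membrane, a sheet of laminin and collagen IV. Inside the cell, talin and kindlin bind the beta tail and switch the receptor on. Paxillin, focal adhesion kinase and the ILK-parvin complex then assemble on it, and vinculin, alpha-actinin, tensin, zyxin and VASP link the complex to actin filaments. The pair of alpha6 and beta4 is different: it anchors keratins in hemidesmosomes. Git2, the gene altered in this study, encodes a scaffold that binds paxillin and carries PIX and PAK proteins to adhesions.

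Total estimated counts ran from 16284414 to 19106581 per library, and the 41 genes together took 0.457% to 0.499% of them. Wild-type libraries held 22.2, 23.7 and 22.7 CPM of Git2 itself, where CPM is a gene's share of the library's counts, scaled between libraries by TMM. The libraries labelled Git2-knockout had 17.4, 15.5 and 16.8 CPM, so its mRNA was reduced and not absent. Epithelial markers were abundant in every library. In TPM, which also corrects for transcript length, 9 such genes summed to 12168 to 12644 in wild-type and to 11703 to 11867 in the other group, and 7 of them fell. Markers of other cells were also present: 9 of 10 tested fibroblast and smooth muscle genes and 7 of 7 endothelial genes rose, with wild-type sums of 21.1 to 22.0 (fibroblast) and 13.3 to 14.0 TPM (endothelial) against 72.3 to 77.7 and 33.2 to 36.4 TPM. Red cell genes rose as well, 4 of 5 tested, and their sum was 83.0 to 87.4 TPM against 302 to 328 TPM. Of all 13558 genes tested 29.6% rose and 27.4% fell. Tagln, Myh11, Tek and Alas2 passed the filter on low counts only through the second group. The counts of rises therefore describe the tested genes and support nothing. No gene of these lists was at 0 in all 6 libraries. In whole RNA of a mixed sample, fewer cells of a type and less RNA per cell cannot be told apart. Replicate 1 labelled Git2-knockout stood apart from its group: chi-square per degree of freedom was 6.79 and 5.05 against replicates 2 and 3, and 1.59 to 2.77 among the other replicate pairs.

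Promoters of 3 of these genes hold a CArG box, the element bound by serum response factor, a known regulator of actin and adhesion genes. RefSeq promoter windows (250 bases before to 50 after a start site, GRCm38.p6) matched 28 of the 41 genes, in 31 windows. A CArG box, counted once because it reads as one on both strands, was found for vinculin (Vcl), kindlin-2 (Fermt2) and the beta6 subunit (Itgb6). That is 10.7% of the 28 genes, against 1.58% of the 10790 tested genes with a window and 1.63% of all 32851 windows. The stretches are shown because all 3 genes are among the rises described below, and capitals mark the element. That choice was made with their values known, and a part of the element in the rises was not tested.
Vcl, chr14:20929156-20929195, plus strand, the element starting 227 bases before the start site: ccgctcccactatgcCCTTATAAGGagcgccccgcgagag
Fermt2, chr14:45530245-45530284, minus strand, the element starting 204 bases before the start site: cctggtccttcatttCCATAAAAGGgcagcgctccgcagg
Itgb6, chr2:60673719-60673758, minus strand, from the second of its listed start sites, the element starting 50 bases before it: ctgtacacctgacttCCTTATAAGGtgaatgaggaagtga
The element of Vcl and that of Itgb6 have the same letters. A second motif, GGAATG on either strand, the core bound by TEAD factors, was found for 4 of the 28 genes, 14.3%, against 14.5% of tested genes with a window. They are Vcl and Itgb1, which rose, Actn4, which fell, and Itga10, which was not called, so Vcl holds both motifs. A match describes these letters in this window and does not show that a factor binds there.

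Integrin and focal adhesion mRNAs were mostly a little higher in the libraries labelled Git2-knockout. Of the 41 genes 39 passed the expression filter, and edgeR's quasi-likelihood test (Benjamini-Hochberg adjusted p under 0.05) called 20 of them higher and 5 lower. Among all 13558 genes tested 29.6% rose, 27.4% fell and 57% were called in either direction, while 64.1% of these 39 genes were called. The CPM of the groups did not overlap for 27 of the 39 genes (21 higher and 6 lower), against 62.9% of all genes. In TPM the number was also 27, of which 25 were higher and 2 lower, against 62.6% of all genes. The median over all genes was itself higher in TPM, by 0.17 on the log2 scale, so this split is not particular to these genes. Most differences were small: 5 genes were called with at least a 2-fold change, where 4.65% of all genes were. The median log2 fold change was 0.20 for the 39 genes and 0.02 for all genes tested. By class, 13 integrin subunits rose and 1 fell of 22 tested, and 7 focal adhesion genes rose and 4 fell of 17. Without the replicate that stood apart, 22 of the 39 rose and 6 fell. In that fit 60.4% of all 13814 genes tested were called, 4082 higher and 4261 lower.

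**Figure D1:**
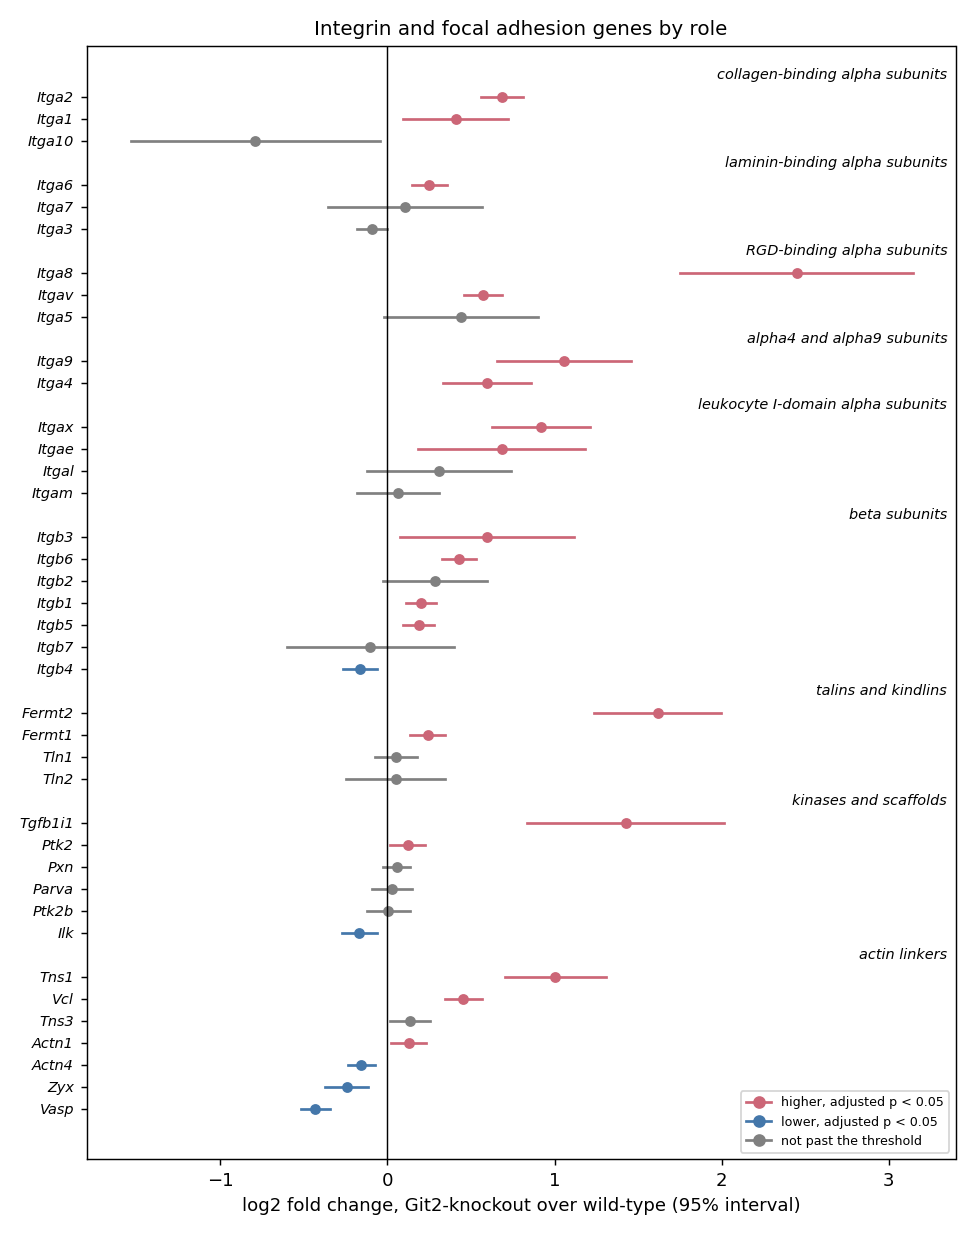
Log2 fold change of each tested gene (point) with its 95% interval (line), libraries labelled Git2-knockout over wild-type, grouped by role. The largest rises are Itga8, Fermt2 and Tgfb1i1, and the clearest fall is Vasp, at -0.43.

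Integrin mRNA was dominated by epithelial subunits in both groups. The 16 alpha subunits summed to 293 to 296 TPM in wild-type and 317 to 365 TPM in the libraries labelled Git2-knockout, the 8 beta subunits to 420 to 427 and 486 to 527 TPM. Itga3, a laminin receptor subunit, took 70.3%, 71.1% and 71.3% of the alpha TPM of the wild-type libraries and 63.3%, 62.9% and 63.7% of the others. Itga6 took 15.8% to 16.6% and 17.9% to 18.6%, Itgav 4.85% to 5.22% and 6.60% to 7.97%, and Itga2 4.09% to 4.36% and 6.36% to 6.76%. None of these 4 ranges overlapped between the groups: the share of Itga3 was lower and the other 3 shares higher in the second group. The remaining 12 alpha subunits were each below 4 TPM in both groups and summed to 10.5 to 11.2 and 14.2 to 19.5 TPM. Among beta subunits, Itgb5, Itgb1 and Itgb4 were at similar levels in wild-type, 33.3% ± 0.570, 29.9% ± 1.35 and 30.7% ± 0.825 of the beta TPM (SD, n = 3). In the other group Itgb4 took 25.4% ± 0.812, Itgb5 35.2% ± 0.139 and Itgb1 32.0% ± 0.931.

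**Figure D2:**
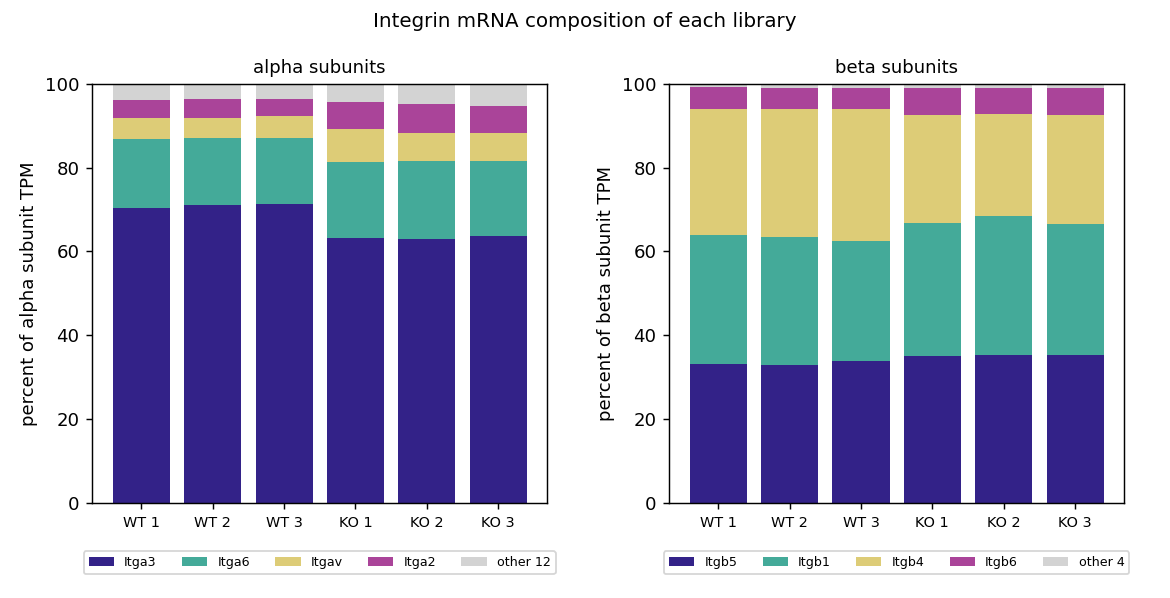
Share of each subunit in the summed TPM of 16 alpha (left) and 8 beta (right) integrin genes, in percent, 1 bar per library (WT wild-type, KO labelled Git2-knockout). The bar of Itga3 shrinks from 70.9% to 63.3% on average and that of Itgb4 from 30.7% to 25.4%.

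The laminin receptors of the epithelium did not move together. Itga6, which pairs with beta1 or beta4, was at 141, 136 and 135 CPM in wild-type and at 151, 173 and 166 CPM in the libraries labelled Git2-knockout. Those groups did not overlap, and Itga6 rose by 0.25 on the log2 scale (SE 0.05, edgeR adjusted p = 4.27e-04). Itga3, the main partner of beta1 here, was at 491, 499.8 and 501 CPM against 438, 478 and 483 CPM. All 3 of the latter were lower, but the change of -0.09 did not pass the test (edgeR adjusted p = 0.0738; the 95% interval, here and below not adjusted for the number of genes, was -0.18 to -0.0025), and it passed without any 1 of the 3 libraries labelled Git2-knockout (0.0358, 0.0327 and 0.0415 without replicates 1, 2 and 3). Itga3 was also called lower with RLE scaling (0.0404), upper quartile scaling (0.0218), DESeq2 (0.0473) and the length trend removed (3.12e-07, log2 fold change -0.26). With the GC trend removed it was at 0.08 and not called, and in TPM the groups overlapped, at 209 ± 0.833 and 219.8 ± 16.6 (SD, n = 3). Itga7, a muscle laminin receptor, was near 2 CPM in both groups, 1.85 ± 0.0545 and 1.99 ± 0.548 CPM (SD, n = 3). The rise of Itga6 was lost when the trend of fold change with transcript length was removed, at 0.03.

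Of the 4 collagen-binding alpha subunits 2 rose, Itga2 and Itga1, and the rise of Itga1 depended on single libraries. Itga2, the epithelial alpha2 subunit that binds collagen, was at 44.1, 45.0 and 42.2 CPM in wild-type and at 64.7, 75.5 and 71.1 CPM in the libraries labelled Git2-knockout. The groups lay far apart, a log2 fold change of 0.69 (SE 0.06, edgeR adjusted p = 9.73e-08). With length and GC trends both removed it was 0.36, still past the threshold. Itga1, the alpha1 subunit found mainly on muscle and vascular cells, was at 4.84, 4.70 and 3.83 against 4.67, 6.44 and 6.59 CPM. Here replicate 1 labelled Git2-knockout lay within the wild-type range, and the rise of 0.41 (edgeR adjusted p = 0.0272) lost its call without wild-type replicate 3 (0.14) or without replicate 2 (0.105) or 3 (0.134) of the other group, and fell to 0.01 with both trends removed. Itga10, a cartilage subunit, had 13 to 25 counts in wild-type and 6 to 13 in the other group, and its change of -0.79 did not pass (edgeR adjusted p = 0.0648), though it did without wild-type replicate 3 (0.0367) or replicate 2 labelled Git2-knockout (0.0404). Itga11 had 3 to 10 counts per library and was not tested, so no difference was detectable at this depth.

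The alphaV receptors rose on both sides of the pair. Itgav, the alpha subunit that binds RGD motifs in matrix and in latent TGF-beta, was at 51.3, 50.2 and 53.9 CPM in wild-type and at 80.9, 76.7 and 73.3 CPM in the libraries labelled Git2-knockout. Its lowest value in the second group was well above its highest in the first, a log2 fold change of 0.57 (SE 0.05, edgeR adjusted p = 2.09e-07). Itgb6, the epithelial partner that activates TGF-beta, was at 49.3, 49.0 and 49.5 against 66.6, 65.0 and 67.4 CPM. Both groups were tight, and Itgb6 rose by 0.43 (SE 0.05, edgeR adjusted p = 1.48e-06). It is 1 of the 3 genes with a CArG box shown above. Itgb5, a vitronectin receptor subunit, was at 195, 202 and 208 against 219.8, 235 and 234 CPM, a smaller rise of 0.19 (SE 0.04, edgeR adjusted p = 0.00162). With length and GC trends both removed the rises of Itgav, Itgb6 and Itgb5 were 0.41, 0.29 and 0.30, and all 3 remained past the threshold. Itgb3, the platelet and endothelial partner, had only 15 to 25 counts per library. It went from 0.927 ± 0.132 to 1.41 ± 0.114 CPM (SD, n = 3; log2 fold change 0.60, edgeR adjusted p = 0.0479), and that call was lost without any 1 of the 6 libraries (edgeR adjusted p = 0.0539 to 0.145). Beside it, the 5 platelet markers summed to 14.6 to 16.6 TPM in wild-type and 14.5 to 17.2 TPM in the other group, and the endothelial sums are given above. The part of these cells in the value was not tested. Itgb8 had 1 to 7 counts per library and was not tested.

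The shared beta1 and hemidesmosomal beta4 subunits moved in opposite directions on this scale. Itgb1, the partner of most alpha subunits, was at 265, 263 and 250.5 CPM in wild-type and at 289.8, 313 and 294 CPM in the libraries labelled Git2-knockout. It rose by 0.20 (SE 0.04, edgeR adjusted p = 7.55e-04), with no overlap between the groups. Itgb4 was at 312, 316 and 335 against 265, 293 and 299 CPM and fell by 0.17 (edgeR adjusted p = 0.00772). That fall lost its call without wild-type replicate 3 (0.0577). Neither direction held under every scaling: with the GC trend removed Itgb1 was at -0.04 and Itgb4 at 0.05, neither past the threshold, and with length and GC trends both removed both were lower, Itgb1 at -0.09 (edgeR adjusted p = 0.0231) and Itgb4 at -0.12 (0.00307). Itgb1 has a GC content of 44.2% and Itgb4 of 59.2% over their transcripts. In TPM, which rescales by length and in which the median gene was 0.17 higher on the log2 scale, Itgb4 was 130.2 ± 4.40 and 129 ± 4.44 and Itgb1 127 ± 4.93 and 163 ± 10.2 (SD, n = 3).

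The largest log2 fold changes among integrin subunits were those of Itga8 and Itga9, both at low level. Itga1 and Itga7, described above, had smaller changes of 0.41 and 0.11, and Itga11 was not tested. Itga8, the alpha8 subunit of smooth muscle and mesenchyme, had 4, 6 and 9 counts in wild-type and 27, 27 and 41 in the libraries labelled Git2-knockout, that is 0.215, 0.320 and 0.479 against 1.64, 1.58 and 2.41 CPM. It passed the expression filter only through the second group. Its log2 fold change was 2.45 (SE 0.33, edgeR adjusted p = 1.12e-05), or 5.46-fold with a 95% interval of 3.36 to 8.86. Itga9, a subunit of smooth muscle and lymphatic endothelium, was at 1.72, 1.82 and 1.81 against 2.91, 3.69 and 4.53 CPM and rose by 1.06 (SE 0.19, edgeR adjusted p = 1.71e-04). Npnt, which encodes the alpha8 ligand nephronectin, rose too, from 2.70 to 6.45 mean TPM (log2 fold change 1.06). Itga5, the fibronectin receptor, was at 1.72, 1.55 and 1.70 against 1.58, 2.52 and 2.65 CPM. Replicate 1 labelled Git2-knockout lay with the wild-type libraries, and the change of 0.44 did not pass the test (edgeR adjusted p = 0.0943, and 0.0162 without that replicate). In the same libraries the tested fibroblast and smooth muscle markers had a median log2 fold change of 1.46 and the endothelial markers of 1.24. Of these markers Tagln, Myh11 and Tek passed the filter only through the second group. The part of such cells in these rises was not tested.

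Leukocyte integrins were all scarce, with no mean above 4 TPM, and differed among themselves. Itgax, the CD11c subunit of dendritic cells and macrophages, was at 3.71, 3.31 and 2.77 CPM in wild-type and at 5.83, 5.92 and 6.77 CPM in the libraries labelled Git2-knockout. It rose by 0.92 (SE 0.14, edgeR adjusted p = 3.58e-05) without overlap. Itgam, the CD11b subunit of myeloid cells, was at 5.59, 5.93 and 6.65 against 5.89, 6.33 and 6.77 CPM, ranges that overlapped almost fully (log2 fold change 0.06, 95% interval -0.18 to 0.31, edgeR adjusted p = 0.667). Itgb2, their common partner, was at 2.74, 3.26 and 3.25 against 3.95, 3.57 and 3.77 CPM: the groups did not overlap, but the change of 0.29 did not pass (edgeR adjusted p = 0.107). Itgb2 was called higher with the GC trend removed (0.41, edgeR adjusted p = 0.0297), with both trends removed (0.41, 0.032) and with limma-trend on log2(TPM + 1) (0.34, 0.00955). Itgal, the lymphocyte subunit of LFA-1, was at 2.26 ± 0.236 and 2.80 ± 0.744 CPM (SD, n = 3; edgeR adjusted p = 0.204, and 0.0293 without replicate 1 labelled Git2-knockout).

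Itgae, the CD103 subunit by which intraepithelial lymphocytes hold E-cadherin, was at 1.24, 1.17 and 0.905 CPM in wild-type and at 1.52, 1.70 and 2.12 CPM in the libraries labelled Git2-knockout. It rose by 0.68 (SE 0.24, edgeR adjusted p = 0.021), a call lost without wild-type replicate 3 (0.0888) or without replicate 3 of the other group (0.122). Its partner Itgb7 was at 1.76 ± 0.208 and 1.64 ± 0.479 CPM (SD, n = 3; log2 fold change -0.10, 95% interval -0.60 to 0.40). Itga4, which also pairs with beta7, was at 3.93, 4.43 and 3.73 against 5.95, 5.80 and 6.54 CPM. It rose by 0.60 (SE 0.13, edgeR adjusted p = 7.02e-04), but was at 0.24 with the length trend removed and no longer called. Beside these, T cell markers summed to 4.06 to 4.80 TPM in wild-type and 4.06 to 5.14 TPM in the other group (of 3 tested, 0 rose and 1 fell), and B cell markers to 19.3 to 20.5 and 7.65 to 9.34 TPM (5 of 5 fell). Macrophage and dendritic cell markers summed to 163 to 165 and 132.5 to 134 TPM, and 2 of 7 tested rose and 1 fell. The lower sum was that of Csf1r, at 104 and 53.6 mean TPM; without it, a choice made after its value was seen, the other 7 genes summed to 57.7 to 61.4 and 78.2 to 81.0 TPM, higher in the second group. In the neutrophil list 1 of 5 genes was tested and not called, and the sum was 1.02 to 1.58 and 0.900 to 1.07 TPM. The part of these cells in the leukocyte integrin values was not tested.

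**Figure D3:**
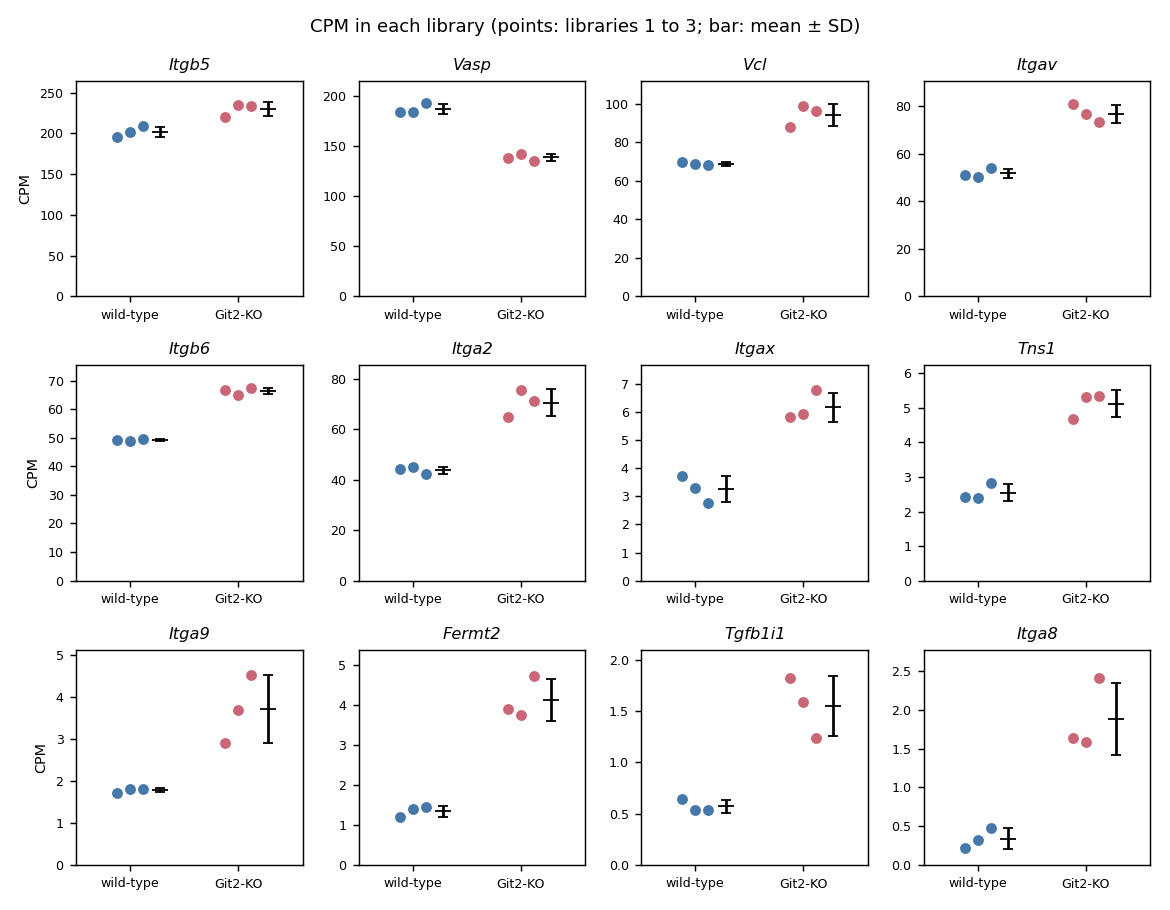
CPM in each library (points, replicates 1 to 3 from left to right) with mean ± SD (bar) for the 12 genes called under every alternative that tested them, except the test against a 1.5-fold change; 5 of them (Fermt2, Itga8, Itga9, Tgfb1i1 and Tns1) were not tested with the 5 CPM filter. In each panel the 2 groups do not overlap, and only Vasp is lower in the libraries labelled Git2-knockout. Itga8 had no length estimate, so removal of the length trend could not test it. Itga8 and Tgfb1i1 passed the expression filter only through the libraries labelled Git2-knockout.

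Set out by pairs, most receptors had at least 1 subunit that rose, Itgb1 being the beta subunit of many. For alpha1, alpha2, alpha4, alpha6, alpha8, alpha9 and alphaV with beta1, and for alphaV with beta3, beta5 and beta6, both subunits rose with no trend removed. The pairs with beta1 did not hold with length and GC trends both removed. Itgb1 was then lower, at -0.09, and Itga1, Itga4 and Itga6 were not called. Itgb3 lost its call without any 1 library. Neither subunit of LFA-1 (Itgal and Itgb2) or of Mac-1 (Itgam and Itgb2) was called. The alpha6 and beta4 pair split, with Itga6 higher and Itgb4 lower. CD103 and CD11c split as well: Itgae and Itgax rose, and their partners Itgb7 and Itgb2 did not pass the test. In TPM the epithelial beta subunits exceeded their alpha partners in several pairs: alphaV was at 14.8 TPM in wild-type while beta5 was at 141 and beta1 at 127, and alpha6 was at 47.4 while beta4 was at 130.2.

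Among the activators, the kindlins rose and the talins did not pass the test. Fermt1 encodes kindlin-1, the epithelial kindlin, and was at 199, 195 and 196 CPM in wild-type and at 213, 242 and 242 CPM in the libraries labelled Git2-knockout. It rose by 0.24 (SE 0.05, edgeR adjusted p = 5.49e-04), and was at 0.08 and not called with the length trend removed (0.055). Fermt2 encodes kindlin-2, the kindlin of mesenchyme and most other tissues, and had far less mRNA: 1.18, 1.39 and 1.44 CPM against 3.88, 3.75 and 4.71 CPM. The rise was 1.62 on the log2 scale (SE 0.18, edgeR adjusted p = 1.48e-06), or 3.07-fold with a 95% interval of 2.36 to 4.0. Fermt2 is also 1 of the 3 genes with a CArG box. The ratio of Fermt2 to Fermt1 within a library was 0.00875, 0.0104 and 0.0107 in wild-type, against 0.0263, 0.0229 and 0.0287 for the second group, so kindlin-1 mRNA remained the main form in every library.

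Tln1, the main talin, was at 145, 143 and 146 CPM in wild-type and at 133, 161 and 155 CPM in the libraries labelled Git2-knockout. The second group spread to both sides of the first, with a log2 fold change of 0.05 (95% interval -0.07 to 0.18, edgeR adjusted p = 0.48). Tln1 was higher without replicate 1 of that group (adjusted p = 0.0162) and lower with the length trend removed, at -0.27 (2.44e-06). Tln2, the longer talin, was at 13.3, 13.2 and 13.4 against 10.3, 16.5 and 14.5 CPM (log2 fold change 0.05, 95% interval -0.25 to 0.35), and was at -0.35 with the length trend removed (edgeR adjusted p = 0.00361). The talins therefore had no direction that held across these settings.

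Kinases and scaffolds at high level changed little, and the rare one changed most. Pxn, paxillin, the docking protein for Git2, was at 385, 392 and 399.6 CPM in wild-type and at 399.7, 408 and 416 CPM in the libraries labelled Git2-knockout. The ranges just failed to meet, and the change of 0.06 did not pass (95% interval -0.02 to 0.14, edgeR adjusted p = 0.219), though with the GC trend removed it was 0.27 (2.34e-05). Its relative Tgfb1i1, which encodes Hic-5, a paxillin family protein of smooth muscle and fibroblasts, had 12, 10 and 10 counts against 30, 27 and 21. That is 0.646, 0.534 and 0.532 against 1.82, 1.58 and 1.24 CPM, a rise of 1.43 (SE 0.28, edgeR adjusted p = 3.82e-04), or 2.69-fold with a 95% interval of 1.78 to 4.04. It passed the expression filter only through the libraries labelled Git2-knockout.

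Ptk2, focal adhesion kinase, was at 48.9, 46.3 and 47.8 CPM in wild-type and at 51.6, 52.2 and 51.6 CPM in the libraries labelled Git2-knockout. The groups did not overlap, but the rise of 0.12 (SE 0.05, edgeR adjusted p = 0.049) lost its call without any 1 of the 6 libraries (edgeR adjusted p = 0.061 to 0.204). Ptk2b, the related kinase PYK2, was at 38.4 ± 1.70 and 38.5 ± 2.39 CPM (SD, n = 3; log2 fold change 0.01, 95% interval -0.12 to 0.13). Ilk, integrin-linked kinase, a scaffold despite its name, was at 59.5, 55.7 and 58.4 against 51.0, 51.1 and 52.5 CPM and fell by 0.17 (SE 0.05, edgeR adjusted p = 0.00942). In TPM it was at 67.0 ± 2.53 and 67.0 ± 1.84 (SD, n = 3), and with length and GC trends both removed it was at -0.00296, so this fall was seen in CPM and not in those values. Its partner Parva, alpha-parvin, was at 46.8 ± 0.857 and 47.6 ± 2.95 CPM (SD, n = 3; log2 fold change 0.03, 95% interval -0.09 to 0.14).

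The actin linkers held both the clearest fall and firm rises. Vasp, which promotes actin filament growth at adhesions, was at 185, 184 and 193 CPM in wild-type and at 138, 142 and 136 CPM in the libraries labelled Git2-knockout. All 3 of the second group were well below the first, a log2 fold change of -0.43 (SE 0.04, edgeR adjusted p = 3.68e-07), and Vasp was lower in TPM too, 172 ± 3.26 against 143 ± 5.82 (SD, n = 3). Removal of both trends left a log2 fold change of -0.19, still past the threshold. Vcl, vinculin, which carries force between talin and actin, was at 69.8, 68.6 and 68.2 against 87.9, 99.1 and 96.1 CPM. Its 3 wild-type values lay close together and all values of the other group were higher, a rise of 0.45 (SE 0.05, edgeR adjusted p = 1.71e-06) that was 0.29 with both trends removed. The CArG box of Vcl has the letters shown above.

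Zyx, zyxin, a sensor of tension that recruits VASP, was at 32.0, 31.8 and 32.4 CPM in wild-type and at 28.8, 25.5 and 26.8 CPM in the libraries labelled Git2-knockout. It fell by 0.24 (SE 0.06, edgeR adjusted p = 0.00265), and lay at -0.00254 with the GC trend removed. Actn4, alpha-actinin-4, an actin cross-linker, was the most abundant gene of the set, at 1601, 1618 and 1654 CPM against 1379, 1494 and 1500.0 CPM. It fell by 0.16 (SE 0.04, edgeR adjusted p = 0.00275), but in TPM the groups overlapped, at 860.0 ± 7.18 and 864 ± 60.5 (SD, n = 3), and with the GC trend removed the change was -0.00242. Actn1, alpha-actinin-1, was at 81.9, 86.0 and 86.4 against 87.2, 95.6 and 95.1 CPM, a rise of 0.13 (SE 0.05, edgeR adjusted p = 0.0367). That call was lost without wild-type replicate 1 (0.156), 2 (0.0823) or 3 (0.0648) and without replicate 2 (0.162) or 3 (0.187) of the other group.

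Tensins bind actin and the beta tail and mark mature adhesions. Tns1, the tensin of mesenchyme and muscle, was at 2.42, 2.40 and 2.82 CPM in wild-type and at 4.67, 5.33 and 5.36 CPM in the libraries labelled Git2-knockout, a rise of 1.01 (SE 0.14, edgeR adjusted p = 2.03e-05). Tns3, which is far more abundant here, was at 238, 235 and 227 against 229.6, 274 and 265 CPM. The change of 0.13 did not pass (edgeR adjusted p = 0.0559), but it did without replicate 1 labelled Git2-knockout (3.31e-05), the library that lay within the wild-type range, and Tns3 was lower with the length trend removed, at -0.13 (0.0019).

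Ratios of related genes were compared within each library, since they do not depend on the scaling between libraries. For 6 of the 8 pairs the groups did not overlap. An exact two-sided permutation test of 3 against 3 libraries cannot go below p = 0.1, which these 6 pairs reached (0.133 after Benjamini-Hochberg adjustment over the 8). For 3 pairs of a form found mainly in stroma and a more abundant relative, the log2 ratio was higher by 1.38 for Fermt2 to Fermt1, by 1.36 for Tgfb1i1 to Pxn and by 0.86 for Tns1 to Tns3. Tgfb1i1 passed the expression filter only through the second group, so its ratio is a description and supports nothing. Their shares stayed small, at most 2.79% of the 2 kindlins, 0.877% of the 2 paxillin family genes and 1.46% of the 2 tensins in any library. Actn1 took 5.05%, 5.23% and 5.17% of the alpha-actinin TPM in wild-type, against 6.26%, 6.22% and 6.19%. The ratio of Itga6 to Itga3 was 0.235, 0.224 and 0.221 against 0.283, 0.296 and 0.281, and that of Itgb4 to Itgb1 0.979, 0.991 and 1.12 against 0.815, 0.740 and 0.829. With the GC trend removed the difference for Itga6 to Itga3 was 0.07 in place of 0.34 on the log2 scale, and that for Itgb4 to Itgb1 was 0.08 in place of -0.37. For Tln2 to Tln1 and Ptk2b to Ptk2 the groups overlapped, with exact permutation p = 0.4 and 0.3 (0.4 and 0.343 adjusted).

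**Figure D4:**
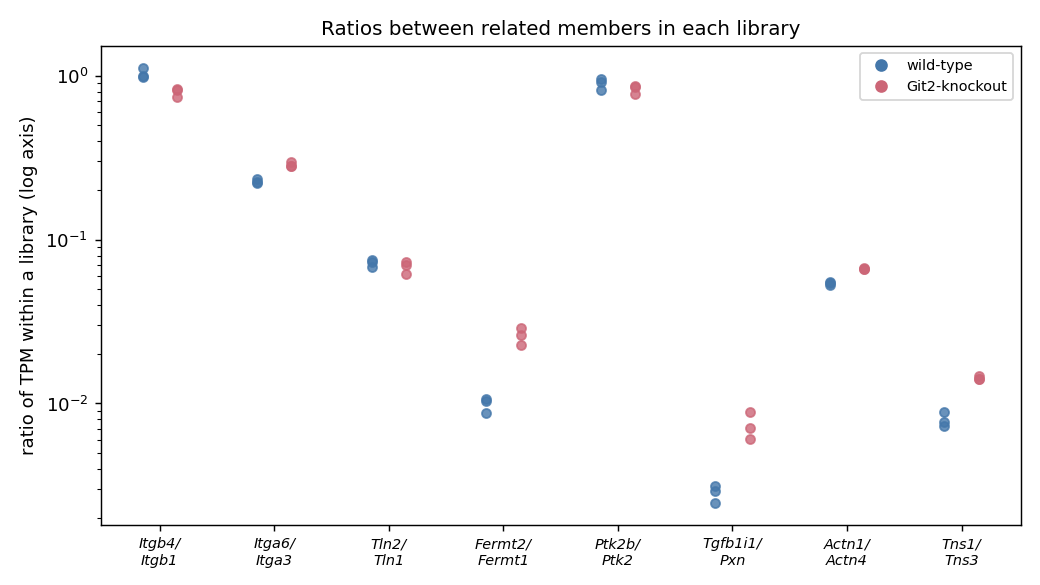
Ratio of the TPM of 2 related genes within each library, on a log axis, for wild-type (blue) and libraries labelled Git2-knockout (red), 3 points each. Fermt2 to Fermt1, Tgfb1i1 to Pxn and Tns1 to Tns3 lie near or below 0.03 in every library and are higher in the second group.

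The tested genes are described here by class of abundance. Of the 18 tested genes with a mean under 5 TPM, 10 rose and 0 fell, with a median log2 fold change of 0.52. Of the 12 at 50 TPM or more, 5 rose and 4 fell, with a median of 0.09. The 5 genes called with at least a 2-fold change, Itga8, Itga9, Fermt2, Tgfb1i1 and Tns1, were all in the first class and are genes of stromal cells in the descriptions above. Some genes of the first class passed the expression filter only through the group in which they were high, so these counts describe the tested genes and support no comparison.

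Of the other genes of integrin adhesion, in 7 lists with 85 tested members, 39 rose and 19 fell, 45.9% and 22.4%, against 29.6% and 27.4% of all genes tested. With the length trend removed 28 of the 85 rose and 26 fell, against 3667 and 3529 of all 13558 genes. With the GC trend removed 35 rose and 8 fell, against 3185 and 3110 of all genes. With both removed 33 rose and 20 fell, against 3012 and 2852. The excess of rises therefore varied in size with the trend removed. Matrix ligands made up the largest block of rises: of 16 tested, 14 rose and 1 fell, with a median log2 fold change of 0.62. Col4a1 and Col4a2, the main basement membrane collagen chains, went from 8.0 and 5.23 to 30.0 and 17.9 mean TPM. Lamc1, the gamma chain of most laminins, rose by 0.21. Lama3, the alpha chain of laminin-332 and the most abundant ligand, went from 80.1 to 133.9 mean TPM (log2 fold change 0.58), while its partner Lamb3 fell by 0.38. Lamb1 (1.38) and Tnc, tenascin-C, a ligand of several alphaV and beta1 integrins (1.95), rose further on the log2 scale. The fibroblast sum of 72.3 to 77.7 TPM against 21.1 to 22.0 TPM stood beside these rises, and its part in them was not tested. Of ligands on other cells and latent TGF-beta genes 3 of 7 rose and 0 fell: Ltbp1 (1.59), Vcam1 (0.92) and Icam1 (0.28). Vcam1, with 8, 8 and 9 counts in wild-type, passed the expression filter only through the libraries labelled Git2-knockout, so its rise is a description. Cdh1, the E-cadherin bound by CD103, was at 371.6 and 442 mean TPM and did not pass the test in counts (log2 fold change 0.09), nor did F11r, the junctional molecule JAM-A, at 184 and 201 mean TPM (-0.03).

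In the list of hemidesmosome and tetraspanin partners 3 of 6 fell and 1 rose, 50% and 16.7%, against 27.4% and 29.6% of all genes tested. The falls were all of tetraspanins, which sit beside laminin receptors. Cd151 fell by 0.41, Cd82 by 0.20 and Cd81 by 0.20 on the log2 scale. In mean TPM Cd151 was at 166 and 141, Cd82 at 478.5 and 468.9 and Cd81 at 100.8 and 97.7, and the groups of Cd81 overlapped. Cd9, also a tetraspanin, had a change of -0.13 that did not pass the test (edgeR adjusted p = 0.156). Of the hemidesmosomal linkers, Plec, plectin, rose (0.18), and Dst, dystonin, had a log2 fold change of 0.34 that did not pass the test (edgeR adjusted p = 0.0794). In the list of integrin activators and inhibitors 5 of 14 rose and 2 fell, 35.7% and 14.3%, so the share of rises was near that of all genes. Rap1b (0.51) and Rap1a (0.38), the small GTPases that recruit talin, Krit1 (0.41), a Rap1 effector that binds the beta1 inhibitor ICAP-1, Flna (0.46), filamin A, which competes with talin for beta tails, and Rapgef2 (0.25), a Rap1 exchange factor, rose. The inhibitor Sharpin fell by 0.15 and Kank1, a talin-binding protein of the adhesion rim, by 0.19, and the beta1 inhibitor Itgb1bp1 was at 19.5 and 19.2 mean TPM and did not pass.

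Of 15 genes of the Src, Cas and Crk list, which act downstream of focal adhesion kinase, 6 rose and 5 fell, 40% and 33.3%, against 29.6% and 27.4% of all genes: the kinases Yes1 (0.61) and Fyn (0.57) and the adaptors Nedd9 (0.29) and Crk (0.25) rose, while the kinase Src fell by 0.20, the adaptor Bcar1, p130Cas, by 0.24 and the Rac activator subunit Elmo3 by 0.15. Bcar1 was at 103 and 98.3 mean TPM, and Src at 95.5 and 93.4. Of the 7 tested GIT, PIX and PAK genes 2 rose and 3 fell, 28.6% and 42.9%. Pak2 (0.27) and Arhgef6 (0.61) rose, while Git2 fell by 0.47, Pak4 by 0.48 and Arhgef7 by 0.17. Git1 was at 109 and 118 mean TPM and did not pass. Of 20 other adaptors of the adhesion plaque 8 rose and 5 fell, 40% and 25%. Lims1, which encodes PINCH-1, the third member of the complex of ILK and parvin, rose by 0.72, from 18.5 to 34.3 mean TPM, while Ilk and Parva did not rise. Lpp (0.60), Tes (0.28) and Enah (1.61), relatives or partners of zyxin and VASP, rose, and Lasp1, an actin-binding adaptor at 234.6 and 229.5 mean TPM, fell by 0.20.

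Fold changes in this series depended on transcript length and GC content, and the genes described here differ in both. With both trends removed 17 of the 39 genes rose and 4 fell, with a median log2 fold change of 0.15, and 18 of the 25 calls kept their direction and threshold. In that setting 43.3% of all genes tested were called, 3012 higher and 2852 lower, with a median of 0.009. Itgb1 turned from 0.20 to -0.09, Itga6 went to 0.01 and Zyx to 0.0012. Of the 25 calls 12 remained under every alternative that tested the gene, other than the test against a 1.5-fold change: the rises of Fermt2, Itga2, Itga8, Itga9, Itgav, Itgax, Itgb5, Itgb6, Tgfb1i1, Tns1 and Vcl, and the fall of Vasp. Of these 12 genes 5 (Fermt2, Itga8, Itga9, Tgfb1i1 and Tns1) were too low to be tested with the filter of at least 5 CPM in 3 libraries. Itga8 had no length estimate and took the median length trend, so removal of that trend could not test its rise. Itga8 and Tgfb1i1 passed the expression filter only through the libraries labelled Git2-knockout, so their place among the 12 supports nothing.

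**Figure D5:**
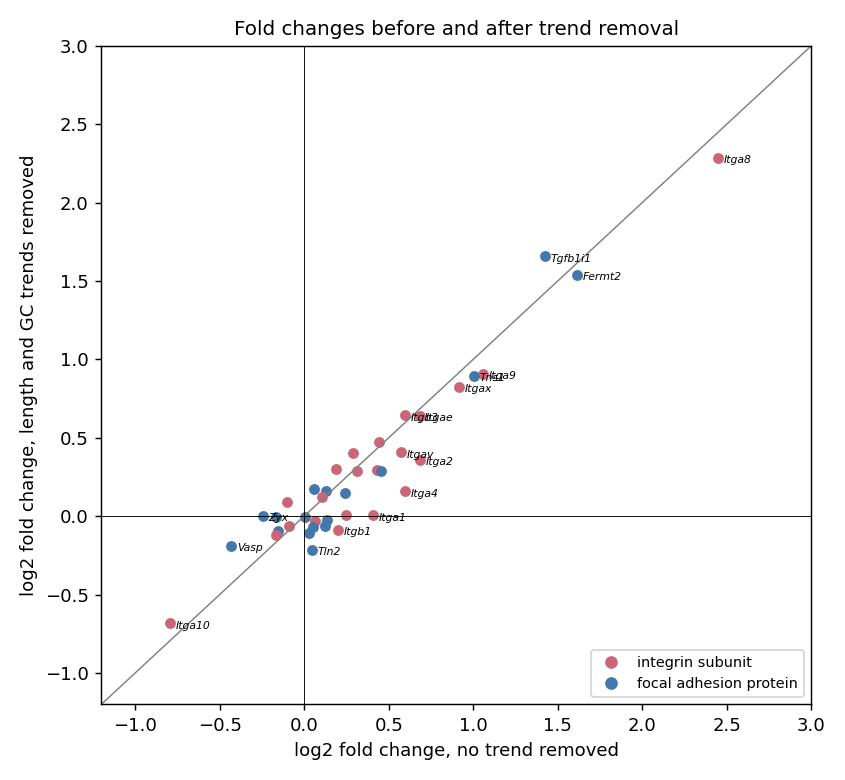
Log2 fold change of each of the 39 tested genes with no trend removed (x axis) and with length and GC trends removed (y axis), integrin subunits in red and focal adhesion genes in blue; the line marks equal values. Fermt2 stays near the line, while Itga8, Itga2, Itga4 and Itga1 lie below it and Tgfb1i1 and Vasp lie above it. Itga8, Itga10 and Itgb3 had no length estimate and took the median length trend, so their own length plays no part in their places.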

How the data were processed

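RNA was sequenced in 3 wild-type libraries and 3 labelled Git2-knockout. HISAT, Bowtie2 and RSEM, with the build GRCm39, are the tools listed per the submitters' processing notes; the annotation and strand setting (not given in the sources used here) decide whether overlapping or antisense reads were counted. The deposited table gives read counts, per the file headers, taken as estimated counts because 58.9% to 69.2% of values per library are not whole, and TPM and FPKM values scaled by the authors. Genes and lists were chosen with earlier results of these data known.

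Estimated counts were rounded. In R 4.3.3, edgeR 4.0.16 tested 13558 genes kept by filterByExpr (TMM, robust quasi-likelihood, two-sided, no covariates, Benjamini-Hochberg over all genes, threshold 0.05). Standard errors are the log2 fold change over the square root of F, and 95% intervals use the moderated degrees of freedom. By rule, values per library are given for called genes and the 10 most abundant, and other lists by up to 4 called genes with the smallest p and the 2 most abundant. Values per library of Itga5, Itgam, Itgb2, Tln1 and Tln2, and Lamb3, Npnt, Rapgef2, Itgb1bp1, Sharpin, Kank1, Dst, Cd9, Src and Arhgef6 among the other genes, were added after their values were seen. Ratios used TPM and an exact permutation test. Length came from counts and FPKM of at least 0.5 (93.1% of tested genes, 36 of these 41), GC content from GENCODE M21 transcripts (97.9%, all 41); trends were loess curves per library (span 0.5). The fits were tested on simulated data. DESeq2 1.42.0 and limma 3.58.1 served as alternatives.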

Additional observations from a re-analysis of the deposited data

How the results depend on the processing

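Precision was limited by 3 libraries a group and, for genes with fewer than about 30 counts, by depth. The median log2 fold change of all genes was 0.02 with TMM and 0.14 with limma-trend on log2(TPM + 1), where 75.3% of all calls were upward against 51.9% with TMM; calls near 0 shift with that scale, and the cause was not tested. The replicate block gave 18 rises and 5 falls among the 39 genes, with 54.9% of all genes called, and lost the calls of Itgb3 and Ptk2. Deviations of same-numbered libraries correlated at r = 0.0409, -0.00113 and 0.0498 across genes, against -0.0682 to 0.033 for libraries of different number. Not every library correlated best with its own number. With 3 libraries a group, values this near 0 can neither show nor exclude that same-numbered libraries were paired.

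The share of all genes called, 57% in the main fit, differed between settings. It was 56.9% with RLE scaling, 57.2% with upper quartile scaling, 47.7% with DESeq2 and 63.7% with at least 5 CPM. It was 53.1% with the length trend removed, 46.4% with the GC trend removed and 43.3% with both. Against a 1.5-fold change it was 4.46%, and with limma-trend 56.3%. Counts among the 39 genes, 20 rises and 5 falls (integrin subunits 13 and 1, focal adhesion genes 7 and 4), changed as follows. With RLE scaling, upper quartile scaling or DESeq2 2 integrin subunits fell. With at least 5 CPM in 3 libraries, which tests 25 of the genes, 13 rose, 8 of them integrin subunits, and the medians of all and of integrin subunits were 0.13 and 0.26. With the length trend removed 13 rose and 8 fell, 2 integrin subunits fell, 4 focal adhesion genes rose, and the medians of all, integrin subunits and focal adhesion genes were 0.079, 0.21 and -0.040. With the GC trend removed 1 fell, 0 integrin subunits and 1 focal adhesion gene fell, the focal adhesion median was 0.18, and 8 of the other adhesion genes fell in place of 19. With both removed the medians were 0.15, 0.29 and -0.00295, and 2 integrin subunits and 2 focal adhesion genes fell. Against a 1.5-fold change 4 rose (1 integrin subunit and 3 focal adhesion genes) and 0 fell, and 10 other adhesion genes rose and 0 fell. With limma-trend on log2(TPM + 1) 1 fell, 0 integrin subunits fell, 11 focal adhesion genes rose and 1 fell, the medians of all and of focal adhesion genes were 0.29 and 0.22, and 4 other adhesion genes fell.

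Leaving out 1 library gave 15 to 22 rises and 5 to 7 falls, 10 to 14 rises and 1 to 3 falls of integrin subunits, 5 to 8 rises and 4 falls of focal adhesion genes, 32 to 46 rises and 16 to 25 falls of other adhesion genes, and medians of 0.16 to 0.23, 0.28 to 0.44 and 0.03 to 0.10. The share of all genes called was then 48.1% to 60.4%. Itga3 was the added fall of integrin subunits in each case without a library labelled Git2-knockout, joined by Itga10 without replicate 2. Without wild-type replicate 3 Itga10 also passed, and Itgb4 lost its call.

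Single genes reversed under trend removal or TPM: Ptk2 (-0.018), Tln1 (-0.27), Tln2 (-0.35) and Tns3 (-0.13) with the length trend removed, Itgb1 (-0.039) and Itgb4 (0.046) with the GC trend removed, Itgb1 (-0.087), Ptk2 (-0.061) and Zyx (0.0012) with both removed, and Actn4 (0.0036) in TPM. Of the ratios, Itgb4 to Itgb1 (0.085) reversed with the GC trend removed and Ptk2b to Ptk2 with the GC trend (0.057) or both (0.058) removed, an alternative chosen after seeing the data; all 8 kept their direction in CPM and with 0.1 added to TPM, and without any 1 library.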
